A study of Mus musculus with 18 samples.

Results

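The constitutive proteasome subunits are the genes that encode the standard protein-degrading particle of the cell, without the subunits that interferon (IFN) puts in their place. Members were the probe sets with a single annotated symbol made of Psma, Psmb, Psmc or Psmd and a number, leaving out the immunoproteasome subunits Psmb8, Psmb9 and Psmb10 and the thymus form Psmb11. This gave 73 probe sets for 35 genes, out of 45037 probe sets on the array. Of these, 67 probe sets for 34 genes were among the 27773 probe sets bright enough to be tested. Psma8, which encodes a ring subunit of the testis, was the gene that did not reach this level, with at most 6.0 intensity units on any array.

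NIH-3T3 cells, a line of mouse embryonic fibroblasts, were pre-treated for 15 min with cycloheximide (CHX, 50 µg/ml), which stops translation, or with its solvent DMSO. Mock, IFNα or IFNγ (100 U/ml each) was then added for 1 h, and 500 µM 4-thiouridine (4sU) was present for the final 30 min. RNA made while 4sU was present was purified and hybridised to Affymetrix MG430 2.0 arrays, with 3 biological replicates for each of the 6 treatments (mock, IFNα, IFNγ, CHX, IFNα with CHX, IFNγ with CHX). Every treatment thus carried the 4sU label and the pre-treatment, and a treatment without CHX carried the solvent. The values are from bulk cultures of 1 cell line on arrays scaled to each other, so that a smaller share of cells making a transcript and less of it per cell cannot be told apart, and each change is relative to the other transcripts on the array.

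The 20S core of the proteasome is a barrel of stacked rings, in which outer rings of alpha subunits guard the entry and inner rings of beta subunits hold the proteolytic sites. The 19S regulator caps the barrel. Its base contains ATPases that unfold substrates, its lid removes ubiquitin chains, and dedicated chaperones assist its assembly without being part of the finished particle. In mammalian cells the subunit genes are known to be controlled together by the transcription factor NRF1 (gene Nfe2l1), whereas IFNγ is known for raising the alternative catalytic subunits of the immunoproteasome.

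Before the members are described, the arrays were checked against their labels. All 12 fibroblast markers lay above 100 intensity units on every array, with a summed level of 64870 to 73730 without CHX and 71450 to 82070 with CHX; what part this had in the results was not tested. The 5 measured leukocyte, 3 endothelial and 4 epithelial markers never exceeded 20 units, a level that the epithelial marker Epcam reached. Irf1, an early IFN target, rose with IFNα (log2 3.95) and IFNγ (log2 5.61), whereas Mx2, a type I IFN target, rose with IFNα (log2 6.03) and differed by 0.00 with IFNγ. The median intensity per array was 9.6 to 10.8, and 0 pairs of arrays were identical.

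CHX raised 2 subunit genes and lowered 7, when the 9 arrays with CHX were compared with the 9 without it over the 3 IFN states (limma, adjusted p under 0.01, the threshold of every limma test here). The genes that rose were Psmd10, an assembly chaperone of the 19S base known as gankyrin, and Psmd14, the lid enzyme that cuts ubiquitin chains off substrates. The genes that fell were the alpha ring subunits Psma7 and Psma5, the catalytic Psmb5, the ATPases Psmc3 and Psmc5, the lid subunit Psmd7 and the assembly chaperone Psmd9. Of all 27773 probe sets, 12.7% were raised and 17.9% lowered in this comparison, against 5.88% and 20.6% of the 34 measured subunits. The subunits had a median log2 difference of -0.17, with the middle of the distribution between -0.31 and 0.07, whereas the median of all probe sets was 0.03. A negative difference was found for 24 of 34 subunits, compared with 46.3% of all probe sets. Over the brighter 22519 probe sets, which hold all the measured subunits, that median was -0.04. Of these brighter probe sets 15.5% were raised and 22% lowered. With each array centred on its median, 2 subunits rose and 13 fell, against 10.8% and 20.5% of all probe sets.

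**Figure D1:**
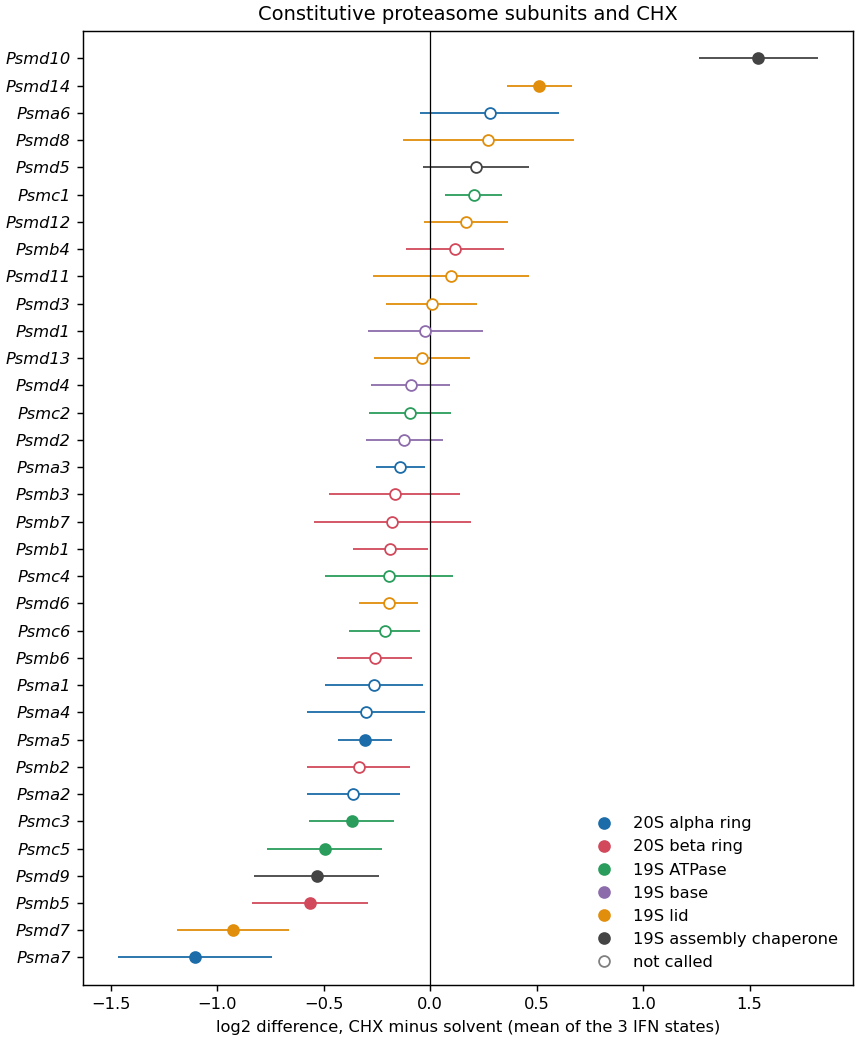
Log2 difference in intensity between the 9 arrays with CHX and the 9 with solvent (x axis, mean of the 3 IFN states) for each of the 34 measured subunit genes (y axis, ordered by the difference). Points are estimates, bars are 95% confidence intervals from limma, colours give the place in the particle and filled points passed adjusted p under 0.01. Psmd10 lies far to the right at 1.54, and Psma7 and Psmd7 lie at the left at -1.10 and -0.93.

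The promoters of Psmd10 and Psmd14, which rose, and of Psma7 and Psmb5, which fell, are shown because these genes are the ones the following paragraphs turn on. RefSeq windows (GRCm38.p6, 250 bases before to 50 after the start of the gene) were found for 28 of the 35 genes, in 30 windows. They were searched on both strands for TGACNNNGC (antioxidant response element core, the letters NRF1 is known to bind), CCAAT (NF-Y box), TTCNNNGAA (GAS core), a pair of GAAA with 2 bases between them (ISRE core), CACGTG (E-box) and GGGCGG (Sp1 box). Capitals mark each stretch that matched one of these, read from either strand, and matches that overlap run together. The windows are chrX:140956662-140956961 (minus strand) for Psmd10, chr2:61711444-61711743 (plus strand) for Psmd14, chr2:180042415-180042714 (minus strand) for Psma7 and chr14:54617946-54618245 (minus strand) for Psmb5.
Psmd10: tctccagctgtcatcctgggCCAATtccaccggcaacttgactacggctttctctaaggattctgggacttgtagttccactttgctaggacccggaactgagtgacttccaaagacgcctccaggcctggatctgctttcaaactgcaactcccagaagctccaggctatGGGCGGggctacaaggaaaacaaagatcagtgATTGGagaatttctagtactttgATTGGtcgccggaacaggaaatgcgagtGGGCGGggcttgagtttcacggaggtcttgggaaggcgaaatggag
Psmd14: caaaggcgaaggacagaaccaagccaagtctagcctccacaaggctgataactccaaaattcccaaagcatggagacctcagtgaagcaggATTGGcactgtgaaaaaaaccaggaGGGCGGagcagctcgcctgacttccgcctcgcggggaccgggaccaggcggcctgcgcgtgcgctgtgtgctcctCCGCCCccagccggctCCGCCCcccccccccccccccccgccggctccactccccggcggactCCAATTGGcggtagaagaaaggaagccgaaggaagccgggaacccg
Psma7: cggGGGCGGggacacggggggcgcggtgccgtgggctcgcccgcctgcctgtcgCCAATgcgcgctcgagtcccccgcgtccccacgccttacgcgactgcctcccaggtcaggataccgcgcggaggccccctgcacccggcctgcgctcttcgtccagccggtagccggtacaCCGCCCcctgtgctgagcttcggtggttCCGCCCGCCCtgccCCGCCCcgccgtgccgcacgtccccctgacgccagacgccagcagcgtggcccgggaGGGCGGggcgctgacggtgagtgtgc
Psmb5: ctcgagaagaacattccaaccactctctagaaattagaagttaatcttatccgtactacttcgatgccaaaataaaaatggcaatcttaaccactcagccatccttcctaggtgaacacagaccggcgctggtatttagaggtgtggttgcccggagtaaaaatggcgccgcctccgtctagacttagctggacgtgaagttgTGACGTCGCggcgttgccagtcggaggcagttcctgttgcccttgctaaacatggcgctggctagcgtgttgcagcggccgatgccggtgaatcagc

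Psmd10 held 3 CCAAT and 2 GGGCGG matches, and Psmd14 held 3 and 3, counting overlapping matches separately. In Psma7, 1 CCAAT and 6 GGGCGG matches were found, and Psmb5 held a single match, to the antioxidant response element core. Over the 30 windows of the subunits, GGGCGG was present in 60.0%, compared with 35.7% of the 32851 promoter windows of all genes. The antioxidant response element core was present in 16.7% against 12.4%, and the genes holding it were Psmb5, Psmb6, Psmc6, Psmd9 and Psmd12. The ISRE core was found in a higher share of the subunit windows than of all windows. It was present in 3 of 30 (those of Psmb3, Psmd4 and Psmd9), against 1131 of 32851 (3.44%), a difference that was not tested. CCAAT was found in 36.7% against 37.4%, the E-box in 6.67% against 7.15%, and the GAS core in 3.33% against 8.3%. These letters are a description of the windows and no measure of binding.

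Among the assembly chaperones, Psmd10 was measured by 1 probe set and had log2 intensities of 6.48, 6.59 and 7.08 with mock, 6.32, 6.72 and 6.86 with IFNα and 6.53, 6.46 and 6.89 with IFNγ. With CHX the values were 8.07, 8.25 and 8.32 without IFN, 8.21, 8.69 and 7.87 with IFNα and 8.0, 7.93 and 8.44 with IFNγ. All 9 arrays with CHX lay above all 9 without it. The difference was log2 1.50 (SE 0.22, 2.83-fold, adjusted p = 3.16e-04) without IFN, 1.63 (3.09-fold, adjusted p = 1.41e-04) with IFNα and 1.50 (2.82-fold, adjusted p = 2.47e-04) with IFNγ. Over the 3 states it was 2.91-fold (log2 1.54, SE 0.13, adjusted p = 3.5e-07). Psmd10 was called with CHX in each IFN state, and leaving out any 1 array did not change these calls.

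Psmd9, another chaperone of the base, went the other way. Its 9 arrays without CHX ranged from 9.07 to 9.75 with a median of 9.51, and its 9 arrays with CHX from 8.07 to 9.29 with a median of 8.99, so that the ranges overlapped. The mean log2 difference was -0.53 (SE 0.14, adjusted p = 0.00578). A second probe set of the gene fell by 0.67 on the log2 scale (adjusted p = 0.00108), and the remaining one was dim. The call was lost (adjusted p 0.0102 to 0.0138) when any 1 of 12 arrays was left out, namely mock replicates 1 and 3, IFNα replicates 1 and 3, the 3 IFNγ replicates, CHX replicates 2 and 3 or the 3 replicates of IFNα with CHX. Psmd5, the remaining chaperone of this kind, differed by log2 0.21 and was not called.

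In the lid, the enzyme Psmd14 and its partner Psmd7, which sit together in the particle, moved in opposite directions. Psmd14 had log2 intensities of 10.60, 10.60 and 10.70 with mock, 10.73, 10.64 and 10.67 with IFNα and 10.58, 10.68 and 10.48 with IFNγ. The values with CHX were 11.43, 11.06 and 10.91 without IFN, 11.29, 11.13 and 11.14 with IFNα and 11.29, 11.06 and 11.0 with IFNγ. Again no array with CHX reached down to the arrays without it. The mean difference was 1.43-fold (log2 0.51, SE 0.07, adjusted p = 4.13e-05) and was of similar size in each state, at log2 0.50, 0.50 and 0.54. Psmd14 passed the threshold with IFNα (adjusted p = 0.00905) and IFNγ (adjusted p = 0.00548) and missed it without IFN (adjusted p = 0.0103). With the replicate number added to the fit, it was also called without IFN (limma, adjusted p = 0.00386). The call with IFNα was lost without any 1 of the 6 arrays concerned (adjusted p 0.0201 to 0.0379), and that with IFNγ without IFNγ replicate 1 (0.0191) or 3 (0.0271) or replicate 1 of IFNγ with CHX (0.0249).

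Psmd7 had log2 intensities of 10.40, 9.96 and 10.59 with mock, 10.46, 10.51 and 10.61 with IFNα and 10.73, 10.44 and 10.75 with IFNγ. With CHX it read 9.19, 9.85 and 9.76 without IFN, 9.72, 9.86 and 9.60 with IFNα and 9.37, 9.78 and 9.01 with IFNγ. On this probe set, the one with the highest mean, the arrays with CHX all lay below those without. On average the gene was 1.90-fold lower (log2 -0.93, SE 0.12, adjusted p = 2.89e-05), and with IFNγ it was 2.39-fold lower (log2 -1.26, SE 0.21, adjusted p = 6.5e-04). Without IFN (log2 -0.72, adjusted p = 0.0286) and with IFNα (log2 -0.80, adjusted p = 0.0155) the threshold was missed, and a test of whether the IFNγ response differed with CHX gave log2 -0.54 (adjusted p = 0.757). A dimmer probe set of Psmd7 gave log2 -0.86 and was not called (adjusted p = 0.0482). Its arrays overlapped, reading up to 8.86 with CHX and down to 8.10 without it. The remaining probe set, near the lower end of the array's range, differed by -0.01. The other 6 lid subunits had mean differences between -0.19 for Psmd6 and 0.27 for Psmd8, and 0 of them passed the threshold.

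**Figure D2:**
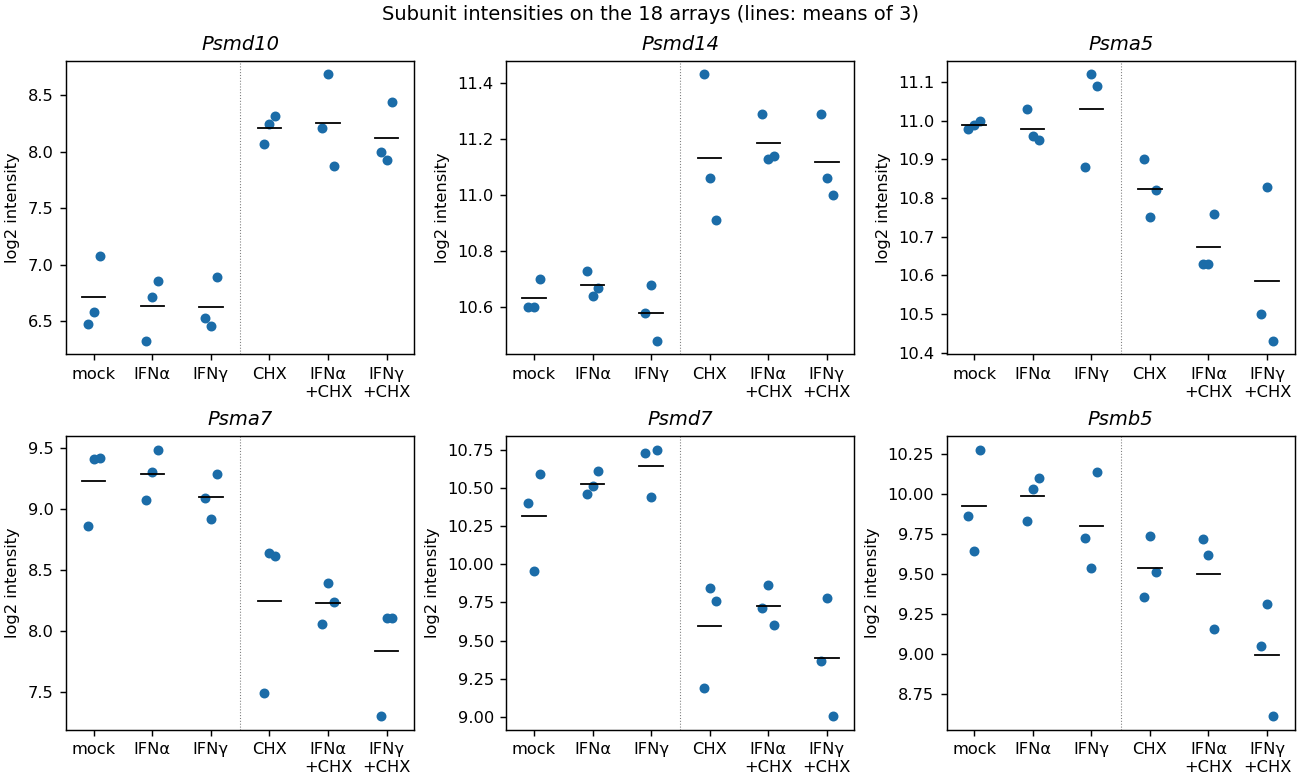
Log2 intensity (y axis) on each of the 18 arrays for 6 subunits, by treatment (x axis; 3 arrays each, in the order of their replicate numbers). Points are arrays and lines are means of 3; the dotted line separates solvent from CHX, and each panel has its own y range. The points right of the dotted line lie all above those on the left for Psmd10 and Psmd14 and all below for Psma7 and Psmd7, and they overlap for Psmb5 and Psma5.

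Complete separation of the 9 arrays with CHX from the 9 without it was thus found for 4 of 34 subunits. Psmd10 and Psmd14 lay above (5.88%, against 4.13% of all probe sets) and Psma7 and Psmd7 below (5.88%, against 7.64%), which is near the share of the array as a whole.

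The alpha ring was the part of the particle with the lowest median difference (log2 -0.30), and 6 of its 7 measured genes were below 0. Psma7, the alpha 4 subunit, had log2 intensities of 8.86, 9.41 and 9.42 with mock, 9.08, 9.31 and 9.49 with IFNα and 9.09, 8.92 and 9.29 with IFNγ. It fell to 7.49, 8.64 and 8.62 with CHX alone, 8.06, 8.39 and 8.24 with IFNα and CHX and 7.30, 8.11 and 8.11 with IFNγ and CHX. All 9 arrays with CHX lay below the 9 without it. The mean difference was 2.15-fold downwards (log2 -1.10, SE 0.17, adjusted p = 1.03e-04), and a second probe set of the gene also fell, by 1.01 on the log2 scale. Within single states the gene was called with IFNγ (log2 -1.26, adjusted p = 0.00591) and missed the threshold without IFN (log2 -0.98, adjusted p = 0.0288) and with IFNα (log2 -1.06, adjusted p = 0.0184). With the replicate number added to the fit, it was also called without IFN (limma, adjusted p = 0.0024) and with IFNα (0.00134). The call with IFNγ was lost without IFNγ replicate 1 (adjusted p 0.0196), 2 (0.0122) or 3 (0.0271) or without replicate 1 of IFNγ with CHX (0.029).

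Psma5, the alpha 5 subunit, changed less but was measured precisely. Its arrays without CHX ranged from 10.88 to 11.12 and those with CHX from 10.43 to 10.90, a mean difference of log2 -0.31 (SE 0.06, adjusted p = 8.06e-04). A second probe set fell by 0.55 on the log2 scale (adjusted p = 1.4e-05), and another differed by -0.30 without passing the threshold (adjusted p = 0.0192). With IFNγ the gene was 1.36-fold lower with CHX (log2 -0.45, adjusted p = 0.00607), a call lost without IFNγ replicate 2 (0.0292) or 3 (0.0269) or replicate 1 (0.0235) or 3 (0.0294) of IFNγ with CHX. Psma2, at log2 -0.36, and Psma6, at log2 0.28, were the lowest and highest of the alpha ring genes not called.

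The beta ring had a median difference of log2 -0.19, with 6 of 7 genes below 0 and 1 called. This was Psmb5, whose product carries the chymotrypsin-like activity. Its log2 intensities were 9.86, 9.64 and 10.28 with mock, 9.83, 10.03 and 10.10 with IFNα and 9.73, 9.54 and 10.14 with IFNγ, and 9.35, 9.74 and 9.51, then 9.72, 9.62 and 9.16, then 9.05, 9.31 and 8.61 in the same order with CHX. The arrays with CHX overlapped those with solvent in the absence of IFN, and lay below them with IFNα and with IFNγ. The mean difference was 1.48-fold downwards (log2 -0.57, SE 0.13, adjusted p = 0.00238), and it was 0.40 without IFN, 0.49 with IFNα and 0.81 with IFNγ in size, none of which passed the threshold alone (adjusted p 0.238, 0.147 and 0.0153). The other catalytic subunits, Psmb6 (caspase-like) and Psmb7 (trypsin-like), had mean differences of log2 -0.26 (95% interval -0.44 to -0.08, adjusted p = 0.0201) and -0.18 (-0.55 to 0.19, adjusted p = 0.409).

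Of the 6 ATPases of the base, Psmc5 fell by 0.50 on the log2 scale (SE 0.13, adjusted p = 0.00543) and Psmc3 by 0.37 (SE 0.09, adjusted p = 0.00537). The 9 arrays without CHX read 9.78 to 10.45 for Psmc5 and 9.72 to 10.14 for Psmc3, and the 9 with CHX read 9.18 to 9.98 and 9.27 to 9.83, so that both overlapped. Psmc1 was the only ATPase with a positive difference (log2 0.20, not called). Leaving out 1 array ended the call of Psmc3 (adjusted p 0.0103 to 0.013) for 6 of 18 arrays, which were replicate 3 of mock, IFNα, IFNγ and IFNα with CHX and replicates 2 and 3 of IFNγ with CHX. For Psmc5 this held for 10 of 18 (adjusted p 0.0103 to 0.0129), which were mock replicates 1 and 3, IFNα replicates 2 and 3, IFNγ replicates 1 and 3, CHX replicate 1, replicate 3 of IFNα with CHX and replicates 2 and 3 of IFNγ with CHX. The non-ATPase subunits of the base were close to 0: Psmd1, Psmd2 and the ubiquitin receptor Psmd4 had mean differences between log2 -0.12 and -0.02, with all 95% intervals within 0.50 of 0.

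The comparisons within each IFN state rest on separate arrays and can be set side by side. Without IFN, 1 subunit rose and 0 fell, against 3.92% and 7.02% of all probe sets, and the subunits had a median of log2 -0.06. With IFNα the counts were 2 and 0, against 5.54% and 6.31%, and the median was -0.14. In IFNγ-treated cells 2 rose and 3 fell, against 4.9% and 9.14%, and the median was -0.21. All-probe-set medians were 0.04, -0.01 and 0.03, and over the brighter 22519 probe sets they were -0.05, -0.02 and -0.05, which leaves little between the subunits and the other bright probe sets without IFN. After Psma7 and Psmd7, the lowest values were those of Psmc5 without IFN (log2 -0.44), Psmd9 with IFNα (-0.55) and Psmb5 with IFNγ (-0.81), and after Psmd10 and Psmd14 the highest were Psma6 without IFN (0.50), Psmd8 with IFNα (0.34) and Psmd12 with IFNγ (0.26), none of them called. The difference had the same sign in the 3 states for 28 of 34 subunits (82.4%, against 64.9% of all probe sets). It was negative throughout for 20 (58.8%, against 33.5%) and positive throughout for 8 (23.5%, against 31.4%), the latter being Psma6, Psmc1, Psmd5, Psmd8, Psmd10, Psmd11, Psmd12 and Psmd14. Fitting only the 6 arrays of a comparison ended the calls of Psmd10 (adjusted p = 0.0135) and Psmd14 (0.0117) with IFNα, and of Psmd14 (0.0447), Psma5 (0.113), Psma7 (0.0307) and Psmd7 (0.0212) with IFNγ. With IFNα it added calls of Psma7 (limma, adjusted p = 0.00922) and Psmd7 (0.0061), both falls, where 3.12% of all probe sets fell.

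**Figure D3:**
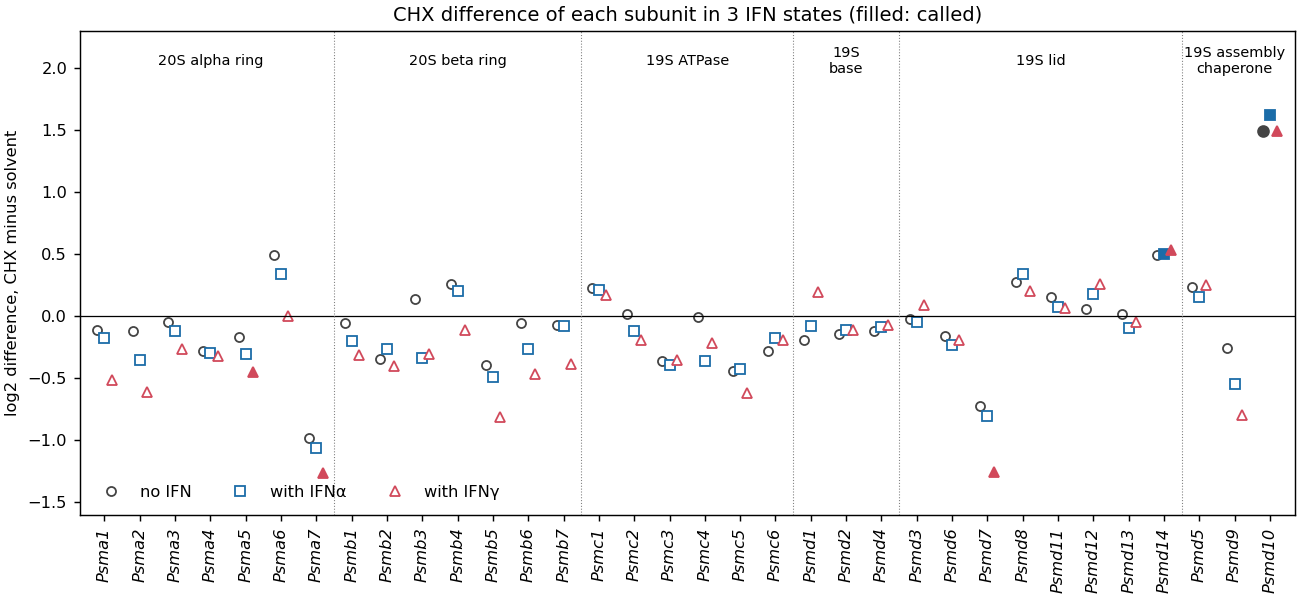
Log2 difference between CHX and solvent (y axis) for each subunit (x axis, grouped by its place in the particle) without IFN (circles), with IFNα (squares) and with IFNγ (triangles), 3 arrays against 3 each. Filled symbols passed adjusted p under 0.01. Psmd10 is filled in all 3 states near 1.5, and Psma7, Psmd7 and Psma5 are filled only with IFNγ, a difference between states that was not called in the test of the interaction.

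The size of the negative differences went with the replicate number of the arrays. When CHX was compared with solvent within a number and averaged over the 3 states, the median of the subunits was log2 -0.06 for number 1, -0.07 for number 2 and -0.35 for number 3, while the median of all probe sets stayed between -0.01 and 0.02. Psmb5 followed this with -0.43, -0.18 and -1.08, and Psmb7 ranged from 0.22 for number 1 to -0.72 for number 3. Psma7 (-1.40, -0.83 and -1.08), Psmd7 (-1.11, -0.47 and -1.20) and Psma5 (-0.29, -0.29 and -0.34) were negative within each number, as were Psmc3 and Psmc5. Psmd10 (1.65, 1.70 and 1.27) and Psmd14 (0.70, 0.44 and 0.40) were positive within each number. In all 9 pairs of arrays with the same number and IFN state, Psmd10, Psmd14 and Psmc1 were higher with CHX and Psma5, Psma7, Psmc3 and Psmd7 were lower.

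Where a gene had several probe sets, these did not always go together. In 2 genes the probe set with the highest mean and a called probe set differed in sign. For Psma1 the brightest probe set differed by log2 -0.26 (not called), whereas a pair of dimmer ones rose by 0.64 (adjusted p = 0.00452) and 0.62 (adjusted p = 0.00926). For Psmc6 the values were -0.21 (not called) and 0.42 (adjusted p = 0.00376). Psma6 had a probe set that rose by 0.79 (adjusted p = 4.26e-05), another that rose by 0.33 (adjusted p = 0.00257) and a brightest one at 0.28 that was not called. The first of these read 8.68, 8.77 and 8.41 with mock and 9.36, 9.93 and 9.72 with CHX alone, and it was also called without IFN (log2 1.05, adjusted p = 0.00136) and with IFNα (log2 0.94, adjusted p = 0.0029). A second probe set of Psmc4 fell by 0.44 on the log2 scale (adjusted p = 0.00416), beside -0.19 for the brightest. The direction of Psma1 and Psmc6 therefore depends on which probe set is read, and transcripts that the probe sets may tell apart were not analysed here.

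**Figure D4:**
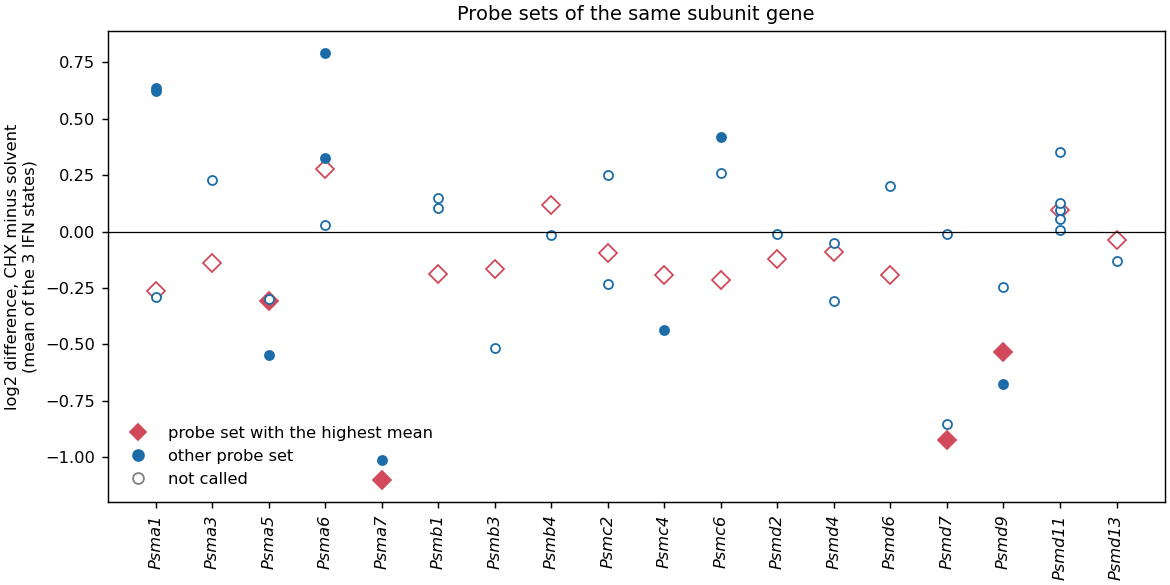
Mean log2 difference between CHX and solvent (y axis) for each tested probe set of the subunit genes with more than 1 tested probe set (x axis). Diamonds are the probe set with the highest mean, circles are the others, and filled symbols passed adjusted p under 0.01. Psma1 and Psmc6 have filled circles above 0 and open diamonds below 0, whereas both symbols of Psma7 lie together near -1.

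IFN itself changed none of the 34 subunits at this threshold. With IFNα alone 0 subunits were called (limma; 0 also at an unadjusted p under 0.05), against 0.569% of all probe sets, and differences ran from log2 -0.20 for Psmc6 and -0.18 for Psmd2 to 0.21 for Psmd7 and 0.22 for Psmd11. With IFNγ alone 0 were called (0 at an unadjusted p under 0.05), against 2.12%, with Psmd5 (-0.32) and Psmc1 (-0.19) lowest and Psmd7 and Psmd3 (0.32 each) highest. In both comparisons the 95% interval of each of the 34 subunits lay within a 2-fold change in either direction, and the widest bounds were log2 -0.74 and 0.87 for IFNα and -0.85 and 0.78 for IFNγ. The median half-width of these 95% intervals was 0.40. Passing the adjusted threshold takes more than leaving such an interval, as Psma7 at log2 -0.98 in the CHX comparison without IFN was not called.

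In the presence of CHX, IFNα again called 0 subunits (0 at an unadjusted p under 0.05), against 0.961% of all probe sets, with Psmc4 (log2 -0.48) and Psmb3 (-0.42) lowest and Psmd11 (0.14) and Psmd8 (0.23) highest. IFNγ with CHX called 0, against 4.34%, and 8 subunits (23.5%, against 18.1% of all probe sets) had an unadjusted p under 0.05 in limma. Here 28 of 34 subunits had a negative difference, compared with 58% of all probe sets, and the median was log2 -0.21 against -0.04. Over the brighter 22519 probe sets the median was -0.08. All 7 alpha ring, all 7 beta ring and all 6 ATPase genes were below 0. The lowest were Psmb5 (log2 -0.54, adjusted p = 0.192) and Psma6 (-0.53, adjusted p = 0.318), the highest were Psmd1 (0.20) and Psmd3 (0.44, adjusted p = 0.178), and the smallest adjusted p was that of Psmb6 (-0.45, adjusted p = 0.0835). The test of whether the response to an IFN differed between cells with and without CHX called 0 subunits for IFNα (against 0.187%; 0 at an unadjusted p under 0.05) and 0 for IFNγ (against 0.241%; 0 at an unadjusted p under 0.05). The extremes were Psmb3 (-0.48), Psmc4 (-0.35), Psmd12 (0.13) and Psmd10 (0.13) for IFNα, and Psmd9 (-0.54), Psmd7 (-0.54), Psmd12 (0.20) and Psmd1 (0.38) for IFNγ.

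The catalytic subunits were set beside the inducible subunits that replace them in the immunoproteasome. Psmb9, which takes the place of Psmb6, read 3.73, 3.99 and 3.67 with mock, 5.37, 5.33 and 4.81 with IFNα and 7.54, 7.08 and 7.25 with IFNγ on the log2 scale. With CHX it read 3.54, 3.71 and 3.60 without IFN, 6.73, 6.53 and 5.74 with IFNα and 8.14, 7.58 and 7.45 with IFNγ. Over the same treatments Psmb6 stayed between 9.14 and 10.04. The log2 ratio of Psmb9 to Psmb6 rose by 2.08 with IFNα and 4.04 with IFNγ, as a mean over arrays with and without CHX (two-sided exact permutation test within these strata, p = 0.005 for both, the smallest it can give, adjusted p = 0.015 over 6 tests). These ratio tests were read at an adjusted p under 0.05, and 0 of the 6 were under 0.01. After 16 units were added to each intensity, the rises were 1.33 and 3.005. For Psmb10 and Psmb7 the ratio rose by 0.56 with IFNγ (p = 0.01, adjusted p = 0.02, exact permutation test; adjusted p = 0.06 without IFNγ replicate 2), by 0.87 without CHX and 0.25 with it, and the 0.26 with IFNα did not pass 0.05 (p = 0.35, adjusted p = 0.42, exact permutation test). In the presence of CHX, Psmb10 itself did not rise with IFNγ (log2 -0.08, adjusted p = 0.829, limma), and mean Psmb7 went from 10.08 to 9.75. The IFNγ response of Psmb10 with CHX minus that without it was log2 -0.93 and missed the threshold (adjusted p = 0.0119, limma). The ratio of Psmb10 to Psmb7 also carried the scatter of Psmb7, whose 3 IFNα arrays read 9.26, 10.25 and 10.64.

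For Psmb8 and Psmb5 the ratio differed by -0.02 with IFNα (p = 0.9, adjusted p = 0.9, exact permutation test) and by 0.39 with IFNγ (p = 0.115, adjusted p = 0.173, exact permutation test), when Psmb8 was read by the probe set with the highest mean. That probe set stayed between 3.32 and 3.83, close to the median of the arrays, and was not shown to be above background. With IFNγ the ratio differed by 0.16 without CHX and 0.62 with it. Mean Psmb5 went from 9.93 to 9.80 without CHX and from 9.53 to 8.99 with it. These ratio tests therefore say little about Psmb8 itself. The other probe set of Psmb8 read 2.10 to 2.29 on 15 arrays and 5.50, 4.40 and 3.77 with IFNγ and CHX, a rise called in limma (adjusted p = 4.33e-05). The 15 arrays lie below the 8.5 units that a probe set had to reach on some array to be kept, so the size of this rise is not given. With it the ratio differed with IFNγ by 1.53 (adjusted p = 0.045, exact permutation test), a size that rests on the same dim values and a setting chosen after seeing the data.

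**Figure D5:**
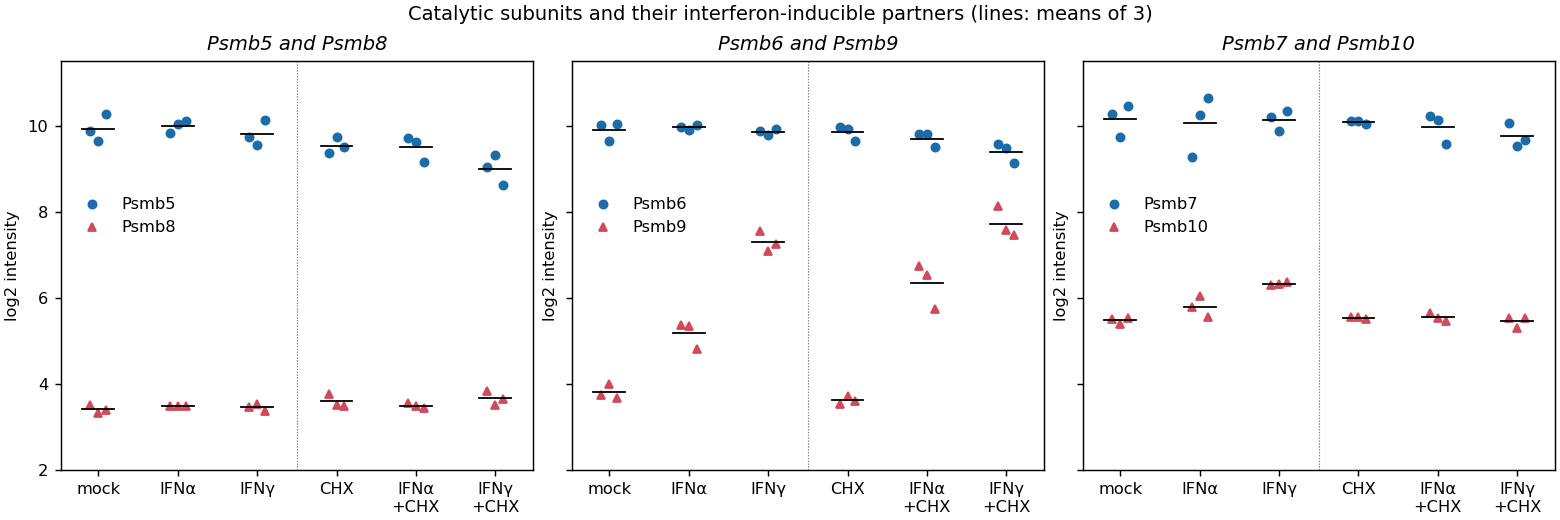
Log2 intensity (y axis) of the catalytic subunits Psmb5, Psmb6 and Psmb7 (circles) and of Psmb8, Psmb9 and Psmb10 (triangles) on the 18 arrays, by treatment (x axis). Lines are means of 3 arrays and the dotted line separates solvent from CHX; heights of different probe sets cannot be compared, only their course over treatments. Psmb9 climbs with IFNα and IFNγ on both sides of the dotted line, while Psmb6 stays between 9.14 and 10.04.

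Genes that act with the subunits were read from lists of 43 genes, of which 33 were measured. Of the immunoproteasome subunits and the PA28 activator (4 of 5 measured), 3 rose with IFNγ alone, namely Psmb9 (11.3-fold, adjusted p = 4.23e-07), the activator Psme1 (2.97-fold, adjusted p = 7.04e-05) and Psmb10 (1.80-fold, adjusted p = 2.43e-04). With CHX present, IFNγ raised Psmb9 (17.2-fold, adjusted p = 3.84e-08) and IFNα raised it 6.59-fold (adjusted p = 5.38e-06). This IFNα call (limma, adjusted p = 0.0154) and that of Psme1 with IFNγ alone (0.0112) were each lost in 1 setting other than leaving out an array. Without IFN, Psmb9 read log2 3.54 to 3.99, close to the median of the arrays, so that its folds rest on a baseline not shown to be above background. With IFNα alone 0 members of this list were called, although Psmb9 was 2.59-fold (adjusted p = 0.0109) and Psme1 1.95-fold (adjusted p = 0.0162) higher than with mock. The test of whether the IFNα response of Psmb9 differed with CHX did not call it (adjusted p = 0.246). The other 6 lists had 0 called genes in any IFN comparison, against 0.187% to 4.34% of all probe sets.

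CHX called genes in 6 of the 7 lists, on the mean of the 3 IFN states, where 12.7% of all probe sets rose and 17.9% fell. Of 10 measured genes in the list on transcription and its control 2 rose and 4 fell. Nfe2l1 had log2 intensities of 8.66 to 9.25 on the 9 arrays without CHX and 7.18 to 8.03 on the 9 with it, which did not overlap, and it fell by 1.27 on the log2 scale (SE 0.13, adjusted p = 3.04e-06). It was called without IFN (log2 -1.23, adjusted p = 0.00176), with IFNα (-1.31, adjusted p = 9.73e-04) and with IFNγ (-1.27, adjusted p = 0.0011). The call without IFN was lost when mock replicate 3 was left out (log2 -1.10, adjusted p = 0.0103) and when only its 6 arrays were fitted (adjusted p = 0.0355). Those with IFNα (limma, adjusted p = 0.0113) and IFNγ (0.0115) were each lost in 1 setting other than leaving out an array. Ngly1, the enzyme that strips sugars from the NRF1 protein, rose (log2 0.84, adjusted p = 2.6e-05), as did Maff (log2 1.47, adjusted p = 5.29e-05), which encodes a partner of NRF factors. Zfand2a (log2 -0.67), Mafg (-0.52) and Nfe2l2 (-0.40) fell, the last losing its call (adjusted p up to 0.0144) without any 1 of 11 arrays, namely mock replicate 1 or 2, IFNα replicate 1 or 2, IFNγ replicate 1 or 3, CHX replicate 2 or 3, replicate 3 of IFNα with CHX or replicate 2 or 3 of IFNγ with CHX.

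Of 5 factors of 20S assembly 2 fell with CHX, Psmg2 (log2 -0.59) and Pomp (-0.38), and 0 rose, against 17.9% and 12.7% of all probe sets. The call of Psmg2 was lost (adjusted p up to 0.0171) without any 1 of 12 arrays, namely mock replicate 2 or 3, IFNα replicate 2 or 3, IFNγ replicate 1 or 3, CHX replicate 1 or 2, replicate 1 or 3 of IFNα with CHX or replicate 1 or 2 of IFNγ with CHX. Among the 3 other activators and inhibitors Psme3 fell (log2 -1.11, adjusted p = 0.00355). Psme1 (log2 -1.15) and Psmb10 (-0.35) fell as well, as did Ube3c, a ubiquitin ligase bound to the 19S (log2 -0.61, adjusted p = 4.45e-05), and the shuttling factor Ubqln4 (log2 -1.03, adjusted p = 1.13e-05). Psmb10 lost its call in 1 setting other than leaving out an array (adjusted p = 0.0148, limma). The 1 measured gene of the ubiquitin and activating enzyme list, Uba6, was not called. Within single states, CHX also called Psmb9 with IFNα (log2 1.17, adjusted p = 0.00359; up to 0.021 without IFNα replicate 3 or without replicate 1 or 2 of IFNα with CHX) and Psme1 (log2 -2.24, adjusted p = 1.26e-06) and Psmb10 (-0.87, adjusted p = 7.04e-05) with IFNγ. This call of Psmb9 was also lost in a setting other than leaving out an array (adjusted p = 0.0583, limma). With IFNα, Psme1 fell by 0.82 on the log2 scale (adjusted p = 0.00491), a call lost (up to 0.0259) without any 1 of its 6 arrays other than replicate 1 of IFNα with CHX.

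The remaining calls within single states were those of genes already named. Without IFN, CHX lowered Ube3c (log2 -1.0, adjusted p = 2.7e-04), Ubqln4 (-0.94) and Zfand2a (-0.79) and raised Maff (1.64). Here Ubqln4 lost its call without mock replicate 1 or 3 or CHX replicate 2 or 3 (adjusted p up to 0.0358), Zfand2a without mock replicate 1 or CHX replicate 1 (up to 0.0122) and Maff without mock replicate 2 or 3 or CHX replicate 1 or 2 (up to 0.0258). In other settings the limma adjusted p reached 0.0376 for Ubqln4, 0.0133 for Zfand2a and 0.0347 for Maff. With IFNα, Ngly1 rose (log2 0.99), a call lost without replicate 3 of IFNα with CHX (adjusted p = 0.0105). With IFNγ, Ubqln4 (log2 -1.35, adjusted p = 4.09e-04), Zfand2a (-0.76) and Pomp (-0.69) fell and Ngly1 rose (0.88). Zfand2a lost this call without IFNγ replicate 3 (adjusted p = 0.0141), Pomp without IFNγ replicate 3 or replicate 3 of IFNγ with CHX (up to 0.0108) and Ngly1 without IFNγ replicate 1 or 3 or replicate 1 or 3 of IFNγ with CHX (up to 0.0239). Settings other than leaving out an array also ended these calls, with a limma adjusted p up to 0.0567 for Zfand2a, 0.0534 for Ngly1, 0.0236 for Pomp and 0.0169 for Ubqln4.

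The precision of these values is set by the number of arrays and the scatter between them. The residual SD of a subunit was 0.23 at the median, from 0.09 for Psma3 to 0.42 for Psmd8, compared with 0.25 for all probe sets. Mean log2 intensities of the 34 measured subunits lay between 7.43 and 12.09, far above the lowest value kept, 8.5 units on the linear scale.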

How the data were processed

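Newly transcribed RNA was measured on 18 Affymetrix MG430 2.0 arrays. The deposited table holds 1 linear intensity per probe set and array, which the authors computed with gc-RMA according to their methods, whereas the submitters' notes name Affymetrix Expression Console. Of 45101 rows, 64 control probe sets were left out. The presence calls that the study filtered on are not used here, so as many probe sets as it kept were taken by their highest value (27773 with ties, lowest 8.5). A single symbol was annotated for 34945 probe sets, several or a repeated one for 932 and none for 9160. For each gene the probe set with the highest mean over the arrays was read. Members and gene lists were chosen with earlier results of these data known.

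Log2 of the intensity, without an added constant, was fitted in limma 3.58.1 (R 4.3.3) with a mean per treatment, 12 residual and 2.05 prior degrees of freedom. Adjustment followed Benjamini and Hochberg, over the 27773 probe sets and separately in each of 10 comparisons. An adjusted p under 0.01, whatever the fold, made a call. Ratios of catalytic subunits were tested by 400 exact permutations within arrays with and without CHX, two-sided. Scripts were tested on simulated data. Arrays have no read depth, and the number of arrays limits precision.

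Replicate numbers were to count as pairs if each same-numbered pair of arrays from different treatments deviated from the treatment means with a correlation over 0.1. This was so for 38 of 45 pairs, so the fit has no block, although the median of these correlations was 0.47. Calls within single states that a replicate block added are named at the end. Alternatives were log2(value + 16) and log2(value + 1), quantile normalization, median centring, fits with only the arrays compared, a replicate block, no filter, the brighter 22519 probe sets, an adjusted p under 0.05, any probe set of a gene and leaving out each array. The text names each called subunit, the 2 largest rises and falls of each comparison, the catalytic subunits and their partners, genes with discordant probe sets, and up to 4 called genes of each list and comparison.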

Additional observations from a re-analysis of the deposited data

Results flagged for a closer look

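Psme1, a subunit of the PA28 activator and not of the constitutive particle, responded differently to IFNγ with and without CHX. Its log2 intensity was 7.36, 7.10 and 7.49 with mock and 8.76, 8.73 and 9.18 with IFNγ, and 6.76, 7.23 and 6.83 with CHX and 6.55, 6.99 and 6.42 with IFNγ and CHX. The response with CHX minus that without it was log2 -1.86 (SE 0.26, adjusted p = 0.00305, limma). The call was lost without mock replicate 2 (log2 -1.75, adjusted p = 0.0128) or CHX replicate 2 (log2 -1.71, adjusted p = 0.0103). It was lost in 3 settings in all, with the highest adjusted p (0.0294, limma) in a setting other than leaving out an array. For the 34 measured subunits of the constitutive particle the same test called 0 genes (0 at an unadjusted p under 0.05).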

How the results depend on the processing

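The count of subunits called with CHX over the 3 IFN states (9) became 15 (2 up, 13 down, including the 9) with median centring (31.3% of all probe sets called, against 30.6%) and 16 at an adjusted p under 0.05 (42.1%), and 8 to 13 in the other settings that kept all arrays. Without IFN, 1 call became 2 with log2(value + 16), log2(value + 1), quantile normalization or any probe set of the gene, 3 with the replicate block and 4 at an adjusted p under 0.05 (19.3% of all probe sets, against 10.9%). With IFNα, 2 calls became 1 in the brighter part of the probe sets and 4 at an adjusted p under 0.05 (20.1%, against 11.9%). Fitting only the arrays compared gave 2 calls there, the falls of Psma7 and Psmd7, and 0 of them shared. This setting left 1 of 5 calls with IFNγ, where an adjusted p under 0.05 gave 9 (23.8%, against 14%). Leaving out 1 array gave 1 to 2 calls without IFN (2 without CHX replicate 3), 1 to 1 with IFNα, 2 to 7 with IFNγ (2 without IFNγ replicate 3, and 3 without IFNγ replicate 1, IFNγ replicate 2 or replicate 1 of IFNγ with CHX) and 6 to 11 over the 3 states. The IFN comparisons and both interactions gave 0 to 0 calls. Ratios without 1 array ranged from 0.30 to 0.51 for Psmb8 to Psmb5 with IFNγ, from -0.12 to 0.07 with IFNα, from 0.49 to 0.64 for Psmb10 to Psmb7 with IFNγ (adjusted p = 0.06 without IFNγ replicate 2), from 0.07 to 0.47 with IFNα, and from 2.01 to 2.20 and 3.97 to 4.16 for Psmb9 to Psmb6, which with log2(value + 16) were 1.33 and 3.005. With the replicate block the Psmb8 to Psmb5 ratio with IFNγ, 0.39, was under 0.05 (adjusted p = 0.0469, permutation test), though its Psmb8 values were not shown to be above background. With the other probe set of Psmb8, a setting chosen after seeing the data, this ratio was 1.53, resting on dim values. No direction of a called result was reversed.

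Deviations from the treatment mean correlated between arrays of the same number with a median of 0.47 (-0.40 to 0.78 over 45 pairs). Between arrays of different number and treatment the median was -0.31. Of the 45 pairs with the same number 38 lay above 0.1, and 14 of 18 arrays correlated best with their own number. With the number as a replicate block, 10 subunits were called over the 3 states, 3 without IFN, 3 with IFNα and 6 with IFNγ, against 38.1%, 16.9%, 17.7% and 20.5% of all probe sets. The added calls were Psma2 over the 3 states and with IFNγ, Psma7 (adjusted p = 0.0024) and Psmd14 (0.00386) without IFN and Psma7 with IFNα (0.00134), so that Psma7 and Psmd14 were then called in each state, as Psmd10 was. The cause of these differences was not tested.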
